A study of Mus musculus with 6 samples.

Results

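The p53 target genes considered here are 31 mouse genes chosen by symbol: Trp53, which encodes p53, its main negative regulators, and the genes it is known to switch on for cell cycle arrest, cell death, DNA repair, metabolism and its own feedback. They are 31 of 53465 genes in a table of read counts from ID8, a line derived from mouse ovarian surface epithelium that grows as ovarian tumours when injected into mice. The 6 libraries comprise 3 labelled KO and 3 labelled WT, numbered 4 to 6 in each group. The series describes ID8 cells stably transfected with a guide against Nat10 (sgNat10) and with a control guide (sgNC). KO was taken as the sgNat10 line and WT as the sgNC line. No drug treatment is given for either group. Each guide is represented by its own line, so guide and line cannot be told apart, and the labels do not say whether a line is a clone or a pool. Whether replicates came from separate cultures is also not stated, and the p-values therefore reflect library-to-library spread, which may be technical. The stated question was which transcripts of the DNA damage response change when NAT10, the enzyme that places N4-acetylcytidine on RNA, is depleted.

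p53 is a transcription factor that is kept scarce in unstressed cells by Mdm2, a ubiquitin ligase that marks it for degradation and whose own gene p53 activates. DNA damage and other stresses interrupt that loop, and the p53 that accumulates binds response elements near its target genes, among them the cell cycle inhibitor Cdkn1a and the cell death genes Bax, Bbc3 and Pmaip1. Much of p53 control acts on the protein, so the level of Trp53 mRNA is not a measure of p53 activity. ID8 cells are known to carry an unmutated Trp53 gene, and in human cells NAT10 has been described as an acetyltransferase of p53.

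Total counts ran from 2234305 to 3126208 in the KO-labelled libraries and from 1687466 to 2148715 in WT, so every KO-labelled library was deeper than every WT library. Levels are given in CPM, counts divided by the TMM-scaled library size, and 1 count was worth 0.310 to 0.428 CPM in KO-labelled libraries and 0.50 to 0.608 CPM in WT. Libraries of 1 group differed far more than by counting error, with a chi-square per degree of freedom of 42.4 to 51.9 between KO-labelled pairs and 21.2 to 30.7 between WT pairs, where sampling noise gives about 1. Nat10 itself stood at 106 ± 43.1 CPM in KO-labelled libraries and 112 ± 53.1 CPM in WT (SD, n = 3 each), with counts of 315, 133 and 445 against 168, 128 and 292. The fitted difference was -0.07 ± 0.48 on the log2 scale (SE; 95% interval -1.09 to 0.94; edgeR adjusted p = 0.99996). The level of the targeted gene's mRNA therefore did not separate the groups and gave no check of the labels, and all directions below are those of the labels. Of 10 markers of ovarian surface and mesothelial cells, 8 were tested, and Wt1 averaged 169.5 CPM in KO-labelled libraries and 169.9 CPM in WT. In edgeR Msln passed as higher and Krt18 and Krt19 as lower, and the 10 markers summed to 4683 to 5337 CPM in KO-labelled libraries and 6231 to 6705 CPM in WT. The part of this difference in the results below was not tested. Krt7 and Lrrn4 had no count in any KO-labelled library and 6 and 15 counts over WT. None of 8 leukocyte or 5 endothelial markers had enough counts to test. Their summed levels were 0 to 0.931 and 0 to 2.17 CPM in KO-labelled libraries, and 0 to 14.5 and 0 to 6.0 CPM in WT, where all leukocyte marker reads were of Cd68 (39 counts). In RNA of whole cultures, a difference in some of the cells cannot be told apart from a smaller one in all of them.

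Among the p53 target genes, 28 of 31 had 10 or more counts in at least 3 libraries, and the same 28 passed the filter of the fit over 8200 genes. Gadd45a, Btg2, Fas, Ei24, Aen and Rrm2b met the rule with exactly 3 libraries. Of these, Ei24 had 42, 30 and 0 counts in KO replicates 4 to 6 and 11, 0 and 0 in WT. Apaf1 fell just short of the rule with 1, 114 and 65 counts in KO-labelled libraries and 0, 1 and 0 in WT. Bbc3 and Trp53cor1 had no count in any library. Gadd45a and Btg2 passed through the KO-labelled libraries alone and Aen through the WT libraries alone. These 3 genes had to differ in order to be tested. Tnfrsf10b reached 10 counts in only 1 WT library and Mdm4 in only 1 KO-labelled library, so their testing also rested on the group where they were high. Counts over the tested members are descriptions only.

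No p53 target gene passed an adjusted p of 0.05 in edgeR's quasi-likelihood test, in a comparison that called 0.402% of all tested genes (33 of 8200), 0.183% as higher and 0.220% as lower. At an unadjusted p under 0.05 there were 4 members higher in KO-labelled libraries, Cdkn1a, Plk2, Gadd45a and Mdm2, and 1 lower, Aen. The shares over all tested genes were 2.70% higher and 3.79% lower. DESeq2 called 3 members, Cdkn1a, Gadd45a and Plk2, all higher, where it called 1.14% of 9357 genes higher and 1.36% lower, and limma-voom called 0. Fitted log2 fold changes lay above 0 for 22 of the 28 tested members, or 78.6%, against 49.0% of all tested genes, and below 0 for 6, against 51.0%. Their median was 0.66, against -0.02 over all tested genes. Setting Aen at its bound could not move this median, because Aen stayed the lowest member. The levels of KO-labelled and WT libraries did not overlap for 8 members. Of these 6 were higher and 2 lower in KO-labelled libraries, against 6.94% and 7.93% of all tested genes. Gadd45a, Tnfrsf10b, Mdm4 and Aen among them owed their testing to the group where they were high, with at most 1 library of the other group at 10 or more counts. In a list of 30 tested genes whose products modify or bind p53, the numbers were also 6 and 2. With every library thinned to the depth of the smallest, an analysis added after the data were seen, 0 members were called and the median was 0.57.

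**Figure D1:**
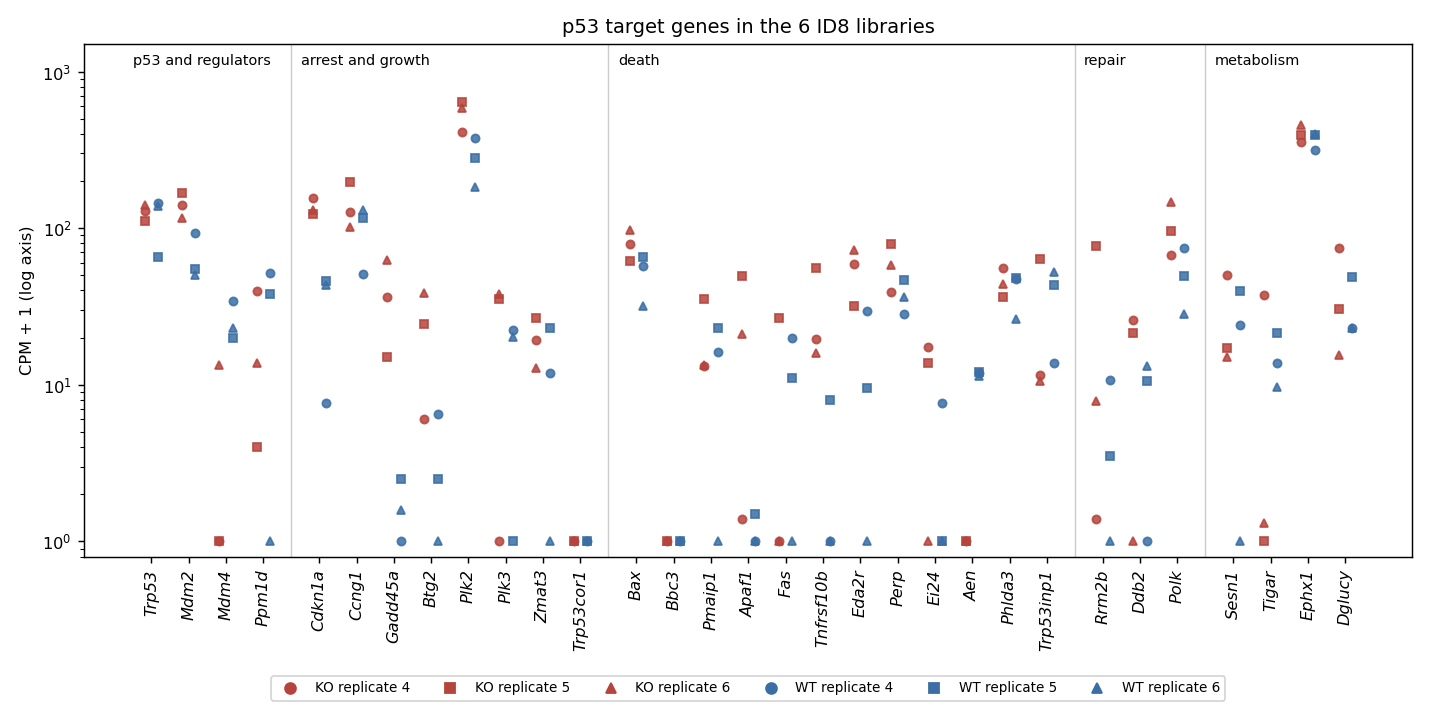
Level of each p53 target gene in every library, as CPM + 1 on a log axis, grouped by role, with KO-labelled libraries in red left of WT libraries in blue. Points on the bottom line are libraries without a count, and Bbc3 and Trp53cor1 lie there in all 6.

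Per kilobase of exon, the members spanned a wide range of levels. Ephx1, the microsomal epoxide hydrolase, was the most abundant at 205 CPM per kilobase in KO-labelled libraries and 189 in WT. Plk2 followed at 121 and 62.1, Bax at 49.8 and 31.8, and Ccng1 at 40.2 and 28.0 CPM per kilobase. Trp53 stood at 31.2 and 28.4 CPM per kilobase. At the other end, Mdm4 was at 0.280 CPM per kilobase in KO-labelled libraries and 1.68 in WT, and Aen at 0 and 1.86. Plk2 and Ephx1 together made up 39.4% to 47.1% of the members' summed CPM in KO-labelled libraries and 46.1% to 48.2% in WT.

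The p53 gene and its regulators gave different pictures for each gene. Trp53 (chromosome 11, 69580359 to 69591873, mm10) stood at 128, 111 and 139 CPM in KO replicates 4, 5 and 6, and at 143, 64.5 and 137 CPM in WT. The groups overlapped, and the fit gave 0.14 ± 0.41 on the log2 scale (SE; 95% interval -0.73 to 1.0; edgeR adjusted p = 0.99996). Mdm2, the ligase that p53 both activates and is degraded by, stood at 139, 167 and 115 CPM in KO-labelled libraries and 92.4, 54.0 and 49.1 CPM in WT. Every KO-labelled library was above every WT library, and the fit gave 1.10 ± 0.43 on the log2 scale, or 2.15-fold (edgeR adjusted p = 0.565, DESeq2 0.101). Left-out libraries moved the estimate between 0.93 and 1.44. Mdm2 lies on chromosome 10 from 117688875 to 117710758 on the minus strand. Reads of Mdm2 per read of Trp53, a ratio that needs no scaling for depth, were 1.09, 1.5 and 0.822 in KO-labelled libraries and 0.647, 0.837 and 0.359 in WT. Here KO replicate 6 and WT replicate 5 overlapped.

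Mdm4, the relative of Mdm2 that binds p53 and blocks its activation of genes, had fewer reads in the KO-labelled libraries. It had 0, 0 and 40 counts in KO replicates 4 to 6, and 55, 38 and 38 in WT. That is 4.14 ± 7.17 CPM in KO-labelled libraries and 24.8 ± 7.63 CPM in WT (SD, n = 3 each), without overlap. The log2 fold change of -2.56 ± 2.31 (SE) had an interval from -7.49 to 2.37 (edgeR adjusted p = 0.99996). It was -8.68 without KO replicate 6, the only KO-labelled library with reads of Mdm4. Reads of Mdm4 per read of Mdm2 were 0, 0 and 0.108 in KO-labelled libraries and 0.362, 0.352 and 0.447 in WT. These ratios could not overlap, because Mdm2 was higher and Mdm4 lower in every KO-labelled library, so they add no further result. Ppm1d encodes a phosphatase (Wip1) that turns p53 signalling down. It varied within both groups, at 38.6, 3.0 and 12.7 CPM in KO-labelled libraries and 50.5, 37.0 and 0 CPM in WT.

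**Figure D2:**
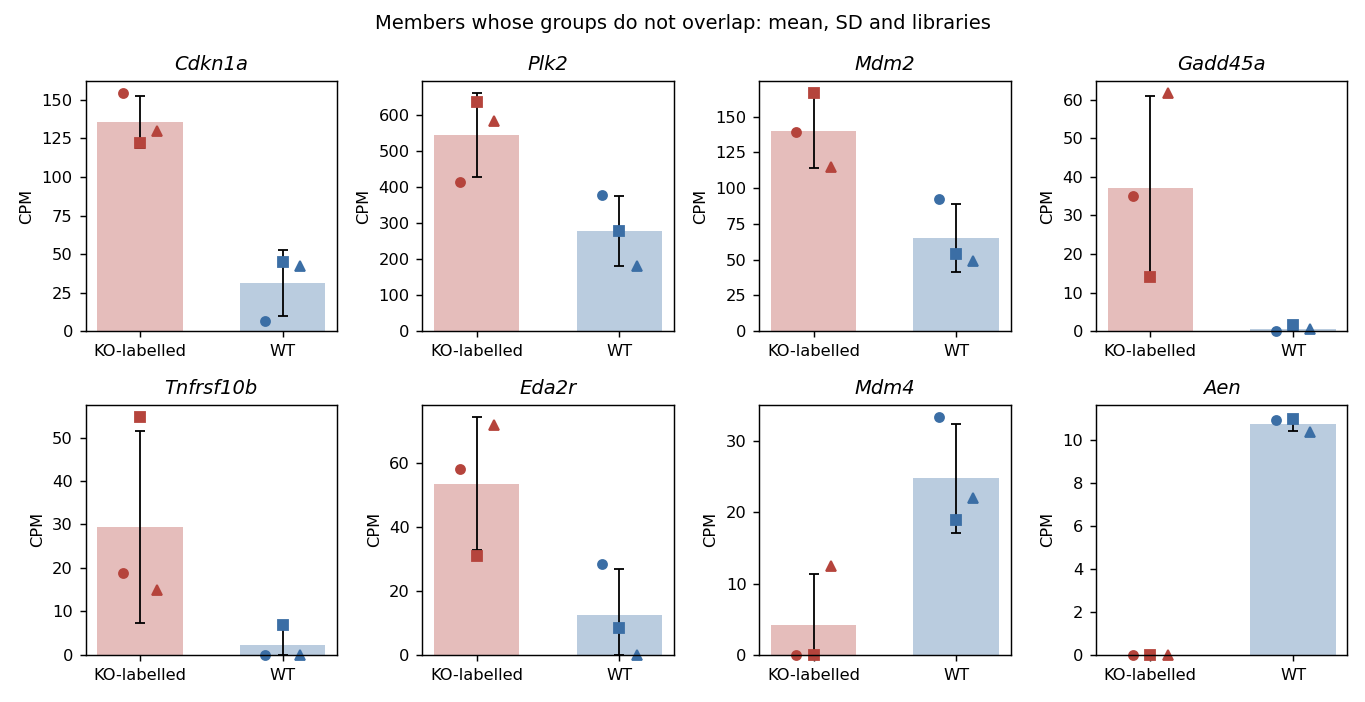
CPM of the 8 members whose KO-labelled and WT libraries do not overlap, with bars at the group mean, error bars of 1 SD (drawn no lower than 0) and a point per library (circle, square and triangle for replicates 4, 5 and 6). Cdkn1a, Plk2, Mdm2, Gadd45a, Tnfrsf10b and Eda2r are higher and Mdm4 and Aen lower in KO-labelled libraries, and no gene shown passed an adjusted p of 0.05 in edgeR.

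The genes of growth arrest included the 3 members with the smallest edgeR p-values, Cdkn1a, Plk2 and Gadd45a. All 7 tested members of this class had a fitted log2 fold change above 0, from 0.52 to 5.6 with a median of 0.96. The groups did not overlap for 3 of them. Over all tested genes 49.0% of estimates lay above 0, and 6.94% had KO-labelled libraries above WT without overlap. Gadd45a, which gave the 5.6 and was 1 of the 3 without overlap, and Btg2 passed the filter through KO-labelled libraries alone. Both had to differ in order to be tested. Cdkn1a, the cyclin-dependent kinase inhibitor p21, stood at 154.5, 122 and 130 CPM in KO replicates 4, 5 and 6. In WT it stood at 6.69, 45.0 and 42.2 CPM. The lowest KO-labelled library was above the highest WT library, and WT replicate 4 lay far below the other WT libraries. The fitted difference was 2.11 ± 0.61 on the log2 scale (SE; interval 0.80 to 3.42), or 4.32-fold (edgeR adjusted p = 0.297, DESeq2 0.00974). Without WT replicate 4 it was 1.64. Exons of AC167363.2 overlap 7.68% of those of Cdkn1a. Reads of Cdkn1a per read of Trp53 were 1.21, 1.10 and 0.933 in KO-labelled libraries and 0.0468, 0.698 and 0.308 in WT, again without overlap.

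Cdkn1a (chromosome 17, 29090976 to 29100727, plus strand) is the textbook p53 target, and its window is printed because it holds a match to the p53 response element. The 20-base p53 response element, made of 2 adjacent decamers that each have a C and a G around a pair of A or T bases, was searched in RefSeq promoter windows of build GRCm38.p6, which run from 250 bases before to 50 after each start. At most 2 mismatches were allowed, none at the C and G of either core, and because the element reads alike on either strand 1 scan covers both. Of 27025 genes with a window, 106 (0.392%) held such an element, and so did 2 of the 23 members with a window, Cdkn1a and Ccng1. The other 8 members had no window to search. Sequence outside the windows was not searched, so a member without a match here may have an element elsewhere. The windows follow 5′ to 3′ on the strand of the gene, with the element in capitals, for Cdkn1a at chr17:29090729-29091028 on the plus strand and for Ccng1 at chr11:40755237-40755536 on the minus strand.
Cdkn1a: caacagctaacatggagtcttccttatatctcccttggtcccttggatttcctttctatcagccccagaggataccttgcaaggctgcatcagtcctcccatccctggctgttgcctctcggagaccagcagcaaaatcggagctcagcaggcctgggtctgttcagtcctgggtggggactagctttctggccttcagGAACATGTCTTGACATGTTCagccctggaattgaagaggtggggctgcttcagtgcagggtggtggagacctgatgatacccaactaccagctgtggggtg
Ccng1: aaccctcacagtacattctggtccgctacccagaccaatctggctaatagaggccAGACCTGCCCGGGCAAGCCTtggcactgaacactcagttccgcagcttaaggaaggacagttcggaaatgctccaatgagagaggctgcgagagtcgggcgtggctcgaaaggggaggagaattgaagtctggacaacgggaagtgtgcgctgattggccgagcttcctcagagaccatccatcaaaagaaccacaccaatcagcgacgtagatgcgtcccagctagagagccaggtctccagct

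Each of the printed elements differs from the full consensus at 1 position. The element of Cdkn1a ends 32 bases before the upstream RefSeq start of the gene and 2822 bases before the downstream one, and that of Ccng1 ends 176 bases before its start. These are matches of letters, not measured binding. Ccng1, which encodes cyclin G1, a partner of protein phosphatase 2A and one of the first p53 targets described in mouse, did not separate the groups although its window holds the same kind of element. It stood at 126, 197 and 101 CPM in KO-labelled libraries and 49.9, 116 and 129.5 CPM in WT. The fitted difference was 0.52 ± 0.44 on the log2 scale (SE; interval -0.43 to 1.47; edgeR adjusted p = 0.99996), and 0.20 without WT replicate 4 and 0.21 without KO replicate 5.

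Plk2, a polo-like kinase that p53 induces, was the most abundant arrest gene, at 413, 637 and 582 CPM in KO-labelled libraries and 376, 278 and 182 CPM in WT. The groups did not overlap, but the gap between KO replicate 4 and WT replicate 4 was small. The fitted difference was 0.96 ± 0.28 on the log2 scale (SE; interval 0.36 to 1.57; edgeR adjusted p = 0.304, DESeq2 0.0107). Gadd45a, a stress-induced inhibitor of cell cycle progression, had 90, 33 and 199 counts in KO-labelled libraries and 0, 3 and 1 in WT. It was nearly without reads in WT, and its fitted log2 fold change of 5.6 ± 2.03 (SE) was wide, from 1.27 to 9.94 (edgeR adjusted p = 0.511, DESeq2 0.00655). Exons of E230016M11Rik overlap 19.1% of those of Gadd45a. Since no source used here states the strand mode or counting settings, how reads in the shared part were counted is not known.

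The remaining arrest genes overlapped between the groups. Btg2, an antiproliferative gene, had 13, 55 and 121 counts in KO-labelled libraries and 9, 3 and 0 in WT. By level KO replicate 4, at 5.07 CPM, lay under WT replicate 4 at 5.47 CPM. Plk3, a kinase related to Plk2, had 0, 80 and 119 counts in KO-labelled libraries and 35, 0 and 33 in WT. Zmat3, which encodes an RNA-binding protein, had 47, 60 and 38 against 18, 44 and 0. Both genes showed a library without reads inside a group that otherwise had them. Trp53cor1, the long noncoding RNA known as lincRNA-p21, lies next to Cdkn1a from 29057430 to 29079179 on the minus strand. It had no count in any of the 6 libraries, also not in those where Cdkn1a was high, and exons of other genes overlap 44.1% of its own.

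**Figure D3:**
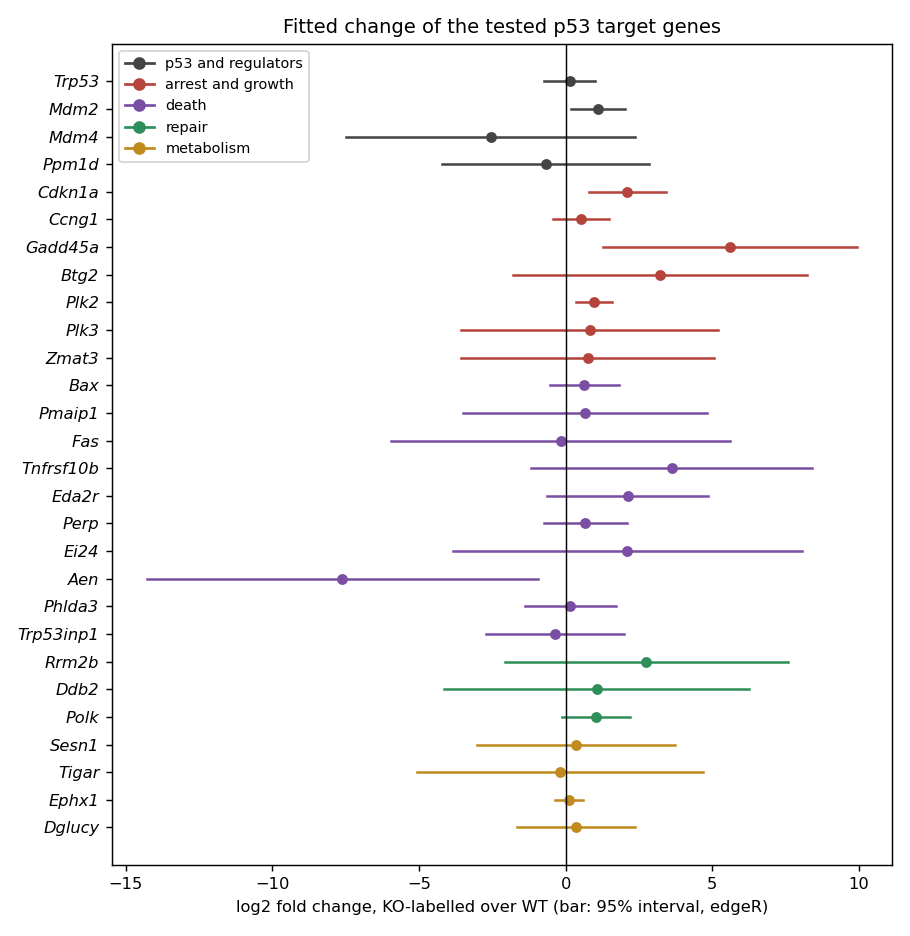
Fitted log2 fold change of KO-labelled over WT libraries for the 28 tested members, with 95% intervals derived from the edgeR test statistic, coloured by role. Mdm2, Cdkn1a, Gadd45a and Plk2 have intervals above 0 and Aen below 0 before adjustment. The fitted value of Aen, which had no count in KO-labelled libraries, is no measure of size.

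Genes of cell death showed estimates on either side of 0. Of 10 tested members, 7 had estimates above 0 and 3 below, with a median of 0.65. Bax, which opens the mitochondrial outer membrane, stood at 78.4, 60.4 and 96.5 CPM in KO-labelled libraries and 55.9, 64.0 and 30.6 CPM in WT. The overlap was between KO replicate 5 and WT replicate 5, and the log2 fold change was 0.64 ± 0.54 (SE; edgeR adjusted p = 0.99996). Exons of another gene, Gm45808, overlap 12.2% of those of Bax. Pmaip1 (Noxa), one of the BH3-only proteins that promote that step, had 31, 80 and 40 counts in KO-labelled libraries and 25, 44 and 0 in WT. Bbc3 (Puma), another, had none in any library. Apaf1, the scaffold of the apoptosome, was not tested. Over the groups it had 180 counts in KO-labelled libraries, nearly all in replicates 5 and 6, and 1 in WT. That is a ratio of 119 with a 95% counting interval from 21.1 to 4731, which leaves the spread between libraries out of account.

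Of the receptor genes, Tnfrsf10b, Eda2r and Fas, none passed at an unadjusted p under 0.05 in edgeR. Tnfrsf10b, the mouse TRAIL receptor, had 48, 128 and 48 counts in KO-labelled libraries and 0, 14 and 0 in WT. Eda2r, a receptor of the same superfamily on chromosome X, had 149, 72 and 232 counts in KO-labelled libraries and 47, 17 and 0 in WT. Both were without overlap in CPM, yet their fitted log2 fold changes of 3.61 ± 2.24 and 2.12 ± 1.29 (SE) had intervals that reached below 0 (edgeR adjusted p = 0.99996 and 0.99938). Without WT replicate 5, the only WT library with reads of Tnfrsf10b, its estimate was 9.08. That of Eda2r was 3.63 without WT replicate 4 and 1.53 without WT replicate 6. Fas had 0, 60 and 0 counts in KO-labelled libraries and 31, 20 and 0 in WT, and its estimate ran from -7.42 without KO replicate 5 to 0.77 without WT replicate 4.

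Aen, a nuclease that acts in p53-dependent apoptosis, was the 1 member with reads in all 3 libraries of a group and none in the other. It had 0, 0 and 0 counts in KO-labelled libraries and 18, 22 and 18 in WT, or 10.9, 11 and 10.4 CPM in WT. Taking 3 counts over all KO-labelled libraries as the floor, Aen was at least 29.2-fold lower there, a bound that takes the 58 WT counts as exact. The 95% counting interval of the ratio of WT to KO-labelled libraries begins at 23.0, and both values leave the spread between libraries out of account. The edgeR adjusted p was 0.601 and the DESeq2 value 0.208. Aen lies on chromosome 7 from 78895854 to 78911209, and no other annotated exon overlaps its exons. Fas and Trp53inp1 were the other tested death genes with an estimate below 0, and neither separated the groups.

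The other death genes overlapped. Perp, a membrane protein of p53-dependent apoptosis and of desmosomes, stood at 37.8, 77.9 and 57.1 CPM in KO-labelled libraries and 27.4, 46.0 and 35.3 CPM in WT. Phlda3, an inhibitor of the kinase Akt, stood at 55.0, 35.1 and 42.8 against 46.2, 47.0 and 25.4 CPM. Their log2 fold changes were 0.67 ± 0.66 and 0.16 ± 0.73 (SE). Trp53inp1, a stress-induced cofactor of p53, had 27, 147 and 31 counts in KO-labelled libraries and 21, 85 and 89 in WT. Its estimate of -0.36 ± 1.10 (SE) depended on the library left out, from -1.81 to 0.04. Ei24, a membrane protein of the endoplasmic reticulum, was among the lowest members, with the counts given above.

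None of the 3 repair genes passed at an unadjusted p under 0.05 in edgeR, all overlapped between the groups, and only Polk had reads in every library. Polk, the translesion DNA polymerase kappa, stood at 66.3, 94.6 and 145 CPM in KO-labelled libraries and 74.2, 48.5 and 27.2 CPM in WT. The overlap was KO replicate 4 with WT replicate 4, and the fitted difference was 1.03 ± 0.54 on the log2 scale (SE; interval -0.13 to 2.19; edgeR adjusted p = 0.877). Rrm2b, the p53-inducible subunit of ribonucleotide reductase, had 1, 177 and 22 counts in KO-labelled libraries and 16, 5 and 0 in WT. The estimate of 2.75 for Rrm2b was -0.15 without KO replicate 5. Ddb2, which finds ultraviolet damage for nucleotide excision repair, had 64, 48 and 0 counts against 0, 19 and 21. Exons of Acp2 overlap 23.8% of those of Ddb2, and whether reads there were counted for Ddb2, for Acp2 or for neither is not known.

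The metabolic targets overlapped between the groups. Ephx1 stood at 356, 390 and 453 CPM in KO-labelled libraries and 316, 395 and 397 CPM in WT. Its log2 fold change was 0.11 ± 0.23 (SE), and the interval from -0.38 to 0.60 was the narrowest of all members and left out a 2-fold difference. Sesn1, a sestrin that restrains the growth kinase mTORC1, had 127, 38 and 45 counts in KO-labelled libraries and 38, 78 and 0 in WT. Tigar, a phosphatase that lowers glycolytic flux, had 94, 0 and 1 counts against 21, 41 and 15. Dglucy, a mitochondrial D-glutamate cyclase, had 189, 69 and 47 counts against 36, 95 and 38. For these 3 genes KO replicate 4 was the highest library. Leaving it out turned the estimates of Sesn1 and Dglucy to -0.44 and -0.46, and took that of Tigar from -0.18 to -5.98.

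Set side by side, the classes had median log2 fold changes of -0.27 for p53 and its regulators (4 genes), 0.96 for arrest (7), 0.65 for death (10), 1.07 for repair (3) and 0.24 for metabolism (4). These are medians of few genes with wide intervals, and differences between classes were not tested. KO-labelled libraries were above WT without overlap for 1 of 4 regulators, 3 of 7 arrest genes and 2 of 10 death genes, where 6.94% of all tested genes were. They were below WT without overlap for 1 regulator, Mdm4, and 1 death gene, Aen, where 7.93% of all tested genes were. These counts include Gadd45a and Aen, which passed the filter through 1 group alone and had to differ in order to be tested. They also include Tnfrsf10b (0, 14 and 0 counts in WT) and Mdm4 (0, 0 and 40 in KO-labelled libraries), whose testing rested on the group where they were high. The 3 repair and 4 metabolic genes overlapped. Summed over the 8 genes of the arrest class, levels were 751, 1053 and 961 CPM in KO-labelled libraries and 471, 464 and 373.5 CPM in WT, a sum in which Plk2 weighs most. Summed over the 12 death genes they were 287.5, 444 and 325 CPM against 222.5, 258 and 153 CPM. For the regulators the sums overlapped, at 306, 280.5 and 279 CPM in KO-labelled libraries and 319, 174 and 208 CPM in WT. Those of the repair genes were 91.7, 191 and 152 CPM in KO-labelled libraries and 83.9, 60.5 and 39.3 CPM in WT, without overlap. Each of these genes overlapped on its own, and the sums rest partly on single libraries. Rrm2b gave 75.8 CPM in KO replicate 5, against 0.39 and 6.83 in KO replicates 4 and 6. Ddb2 gave 25.0 CPM in KO replicate 4 and 0 in WT replicate 4. Those of the metabolic genes overlapped, at 516, 435 and 481.5 CPM against 374, 502 and 427 CPM.

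Libraries contributed unequally. Of the 28 tested members 24 (85.7%) had their highest level in a KO-labelled library and 4 in a WT library, against 52.5% and 47.5% of all tested genes. Gadd45a, Btg2 and Tnfrsf10b owed their testing to KO-labelled libraries, and Aen and Mdm4 to WT libraries, so the filter bore on their place in these counts. KO replicate 5 was the highest library of 10 members, or 35.7%, against 17.9% of all tested genes. WT replicate 6 was the highest library of 0 members, against 18.1% of all tested genes, and had no reads for 10 of 28 (35.7%), among them Eda2r, Sesn1, Ppm1d, Zmat3 and Pmaip1. In the same library 13.4% of all tested genes were at 0. In the other libraries 3 to 4 members were at 0 in KO-labelled and 2 to 3 in WT. Without WT replicate 6 the members' median log2 fold change was 0.52, with 20 estimates above 0 and 8 below. In all, 15 of the 28 members (53.6%) were at 0 in part of a group while counted in the rest of it, against 32.4% of all tested genes. The median coefficient of variation was 64.8% in KO-labelled libraries and 62.6% in WT for the members, and 56.2% and 49.2% for all tested genes.

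**Figure D4:**
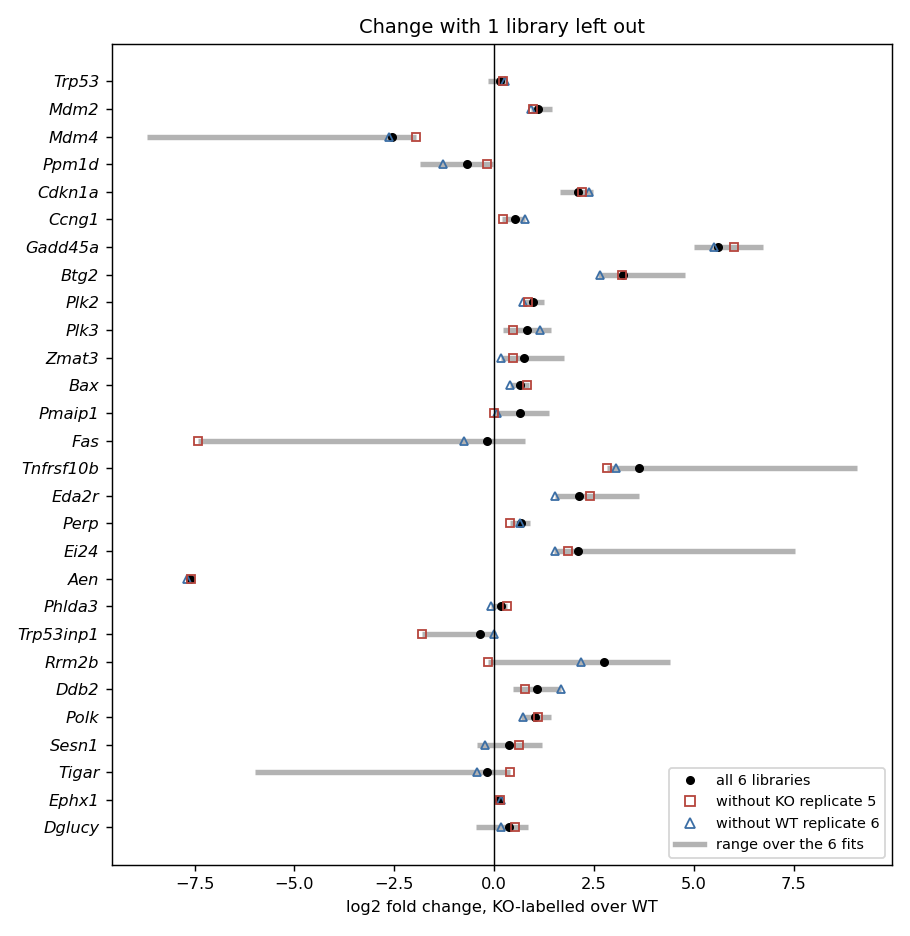
Log2 fold change of KO-labelled over WT for each tested member with all 6 libraries (black) and the range over the 6 fits with 1 library left out (grey), with the fits without KO replicate 5 and without WT replicate 6 marked. In these fits 9 members cross 0 (Trp53, Pmaip1, Fas, Phlda3, Trp53inp1, Rrm2b, Sesn1, Tigar and Dglucy), Mdm4, Ppm1d and Aen stay below 0, and the other 16 stay above it.

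Other parts of the p53 pathway were read from separate lists. Of 50 further p53 targets 34 were tested and 0 passed in edgeR. At an unadjusted edgeR p under 0.05, 2 were higher and 2 lower, where 2.70% and 3.79% of all tested genes were. DESeq2 called 1 higher and 1 lower, where it called 1.14% and 1.36% of 9357 genes. The estimates of the 34 were 17 above and 17 below 0, with a median of 0.01. KO-labelled libraries were above WT without overlap for 3 of them and below for 1, against 6.94% and 7.93% of all tested genes. Ddit4 (REDD1), a stress-induced inhibitor of mTORC1, stood at 18.7, 20.1 and 22.6 CPM in KO-labelled libraries and 103, 138 and 100 CPM in WT. With a log2 fold change of -2.47 ± 0.53 (SE) it was the furthest apart relative to its error in that list (edgeR adjusted p = 0.0646, DESeq2 1.44e-05). Ptpn14, a phosphatase that restrains YAP and a p53 target in mouse, stood at 179, 167 and 245 CPM against 79.0, 114 and 89.6 CPM (edgeR adjusted p = 0.429, DESeq2 0.0282). Tob1, an antiproliferative relative of Btg2, stood at 23.8, 139 and 47.5 against 212, 135 and 192 CPM (edgeR adjusted p = 0.570). Gdf15, Sfn and Rprm, further p53 targets, had no count in any library.

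Genes whose products modify or bind p53 were also read as a list. Of 34, 30 were tested, with 16 estimates above and 14 below 0 and a median of 0.11. KO-labelled libraries were above WT without overlap for 6 of them and below for 2, against 6.94% and 7.93% of all tested genes. None of the 30 passed in edgeR, and DESeq2 and limma-voom called 0. At an unadjusted edgeR p under 0.05, 1 was lower and 0 were higher, where 3.79% and 2.70% of all tested genes were. That gene was Npm1, nucleophosmin, which holds the Arf protein in the nucleolus, at 816 ± 85.6 CPM in KO-labelled libraries and 1070 ± 134 CPM in WT (SD, n = 3 each; edgeR adjusted p = 0.768). Cdkn2a, the gene of Arf, which blocks Mdm2, and the p53 relatives Trp63 and Trp73 had no count in any library.

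Cell cycle genes that p53 is known to repress through p21 and the DREAM complex were all tested. Of these 32 genes 9 had estimates above and 23 below 0, with a median of -0.23, against 49.0% and 51.0% of all tested genes. KO-labelled libraries were above WT without overlap for 1 and below for 4, against 6.94% and 7.93%. None of the 32 passed in edgeR, and DESeq2 and limma-voom called 0. At an unadjusted edgeR p under 0.05, 1 was higher and 2 lower, where 2.70% and 3.79% of all tested genes were. Aurka, the mitotic kinase Aurora A, stood at 62.8, 84.8 and 62.1 CPM in KO-labelled libraries and 133, 152 and 157 CPM in WT (edgeR adjusted p = 0.524). Cenpe, a kinetochore motor, stood at 836 ± 67.8 against 1236 ± 555 CPM (SD, n = 3 each; edgeR adjusted p = 0.713), with its highest level in WT replicate 4. Foxm1, the transcription factor of mitotic genes, went the other way, at 91.7, 54.0 and 69.5 CPM in KO-labelled libraries and 24.3, 30.0 and 28.9 CPM in WT (edgeR adjusted p = 0.734).

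**Figure D5:**
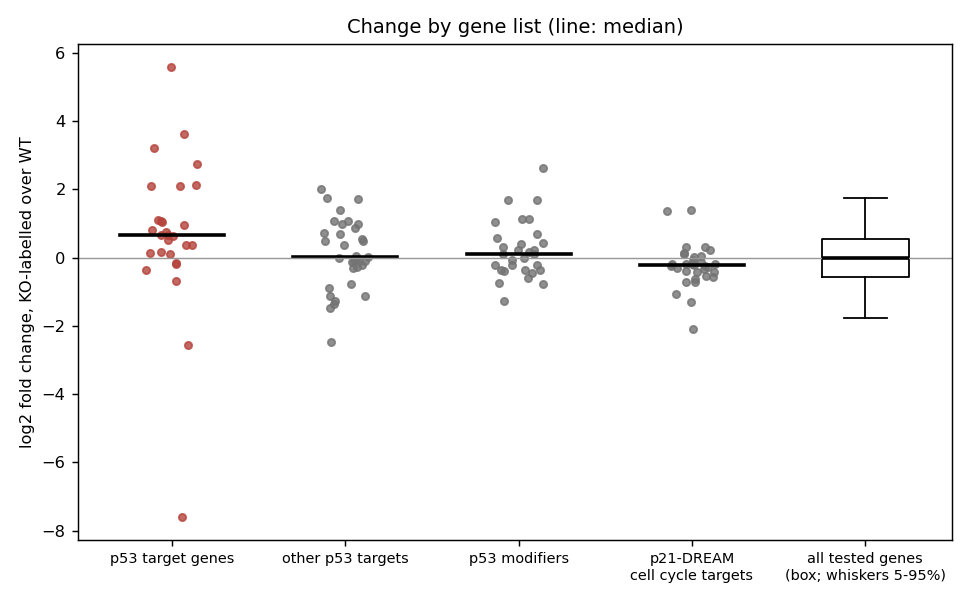
Log2 fold change of KO-labelled over WT libraries for each tested gene of the p53 target list and of the other pathway lists, with a line at each median, beside a box of all tested genes with whiskers from the 5th to the 95th percentile. The medians are 0.66, 0.01, 0.11 and -0.23, against -0.02 for all tested genes, and the lowest point, Aen, had no count in KO-labelled libraries.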

How the data were processed

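Poly(A) RNA of ID8 cells was sequenced in 6 libraries. The submitters' processing notes name fastp, the aligner HISAT2 (2.0.5), the counter featureCounts (1.5.0-p3) and build mm10, and the authors deposited raw counts per gene without normalization. No source used here states settings, strand mode or annotation release. Symbols, coordinates and exon lengths come from GENCODE M21, and promoter windows from RefSeq (GRCm38.p6). Tests used edgeR 4.0.16 (R 4.3.3): filterByExpr (minimum count 10, 8200 of 53465 genes kept), TMM, a robust quasi-likelihood fit with group as the only term, two-sided, Benjamini-Hochberg adjustment over all tested genes, threshold 0.05. Alternatives were DESeq2 1.42.0, limma-voom 3.58.1, other scalings and filters, the replicate number as a block, and each library left out. The members, lists and tests were chosen with earlier results of these data known. Named genes are all members, Nat10, and up to 3 genes with the smallest p of each other pathway list; genes at 0 and single marker genes were named after their values were seen. The scripts were tested on simulated data. The SE of a log2 fold change was its absolute value divided by the square root of the F statistic of the edgeR test. Its interval was symmetric, from that SE and a t distribution, and is approximate for genes near 0 counts. Intervals are at 95%, and counting intervals and floors cover counting error only, because amplified reads are not independent molecules.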

Additional observations from a re-analysis of the deposited data

How the results depend on the processing

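No p53 target gene was called by edgeR with other scalings, with a filter of 10 counts in 3 libraries, with the replicate block, after thinning, or without any 1 library, and limma-voom called none. DESeq2 called 3 members, 2 further p53 targets and 234 genes in all (107 higher, 127 lower), and edgeR without a filter on low counts called 2 members, Cdkn1a (adjusted p = 0.0245) and Plk2 (0.0412), 1 further target and 91 genes in all. With 1 library left out, 6 to 29 genes were called over the whole table, against 33. Library totals in place of TMM called 27 higher and 16 lower, against 15 and 18, and moved the median of all genes by 0.11 on the log2 scale, with the members' median at 0.78. The members' median was 0.47 to 0.92 with 1 library left out and 0.57 to 0.95 under the other settings, the last with the replicate block, and the block called 38 genes in all. Same-numbered libraries did not deviate together (correlations of -0.0167, -0.00258 and -0.00666), so the numbers were not taken to pair them, and no KO-labelled library correlated best with the WT library of its own number. Of 224 estimates for members under other settings on all libraries, 222 kept their sign; limma-voom gave 0.55 for Ppm1d and -0.04 for Dglucy. Of 168 with 1 library left out, 152 kept it. The ranges were -0.15 to 0.32 for Trp53, -0.0049 to 1.36 for Pmaip1, -7.42 to 0.77 for Fas, -0.07 to 0.31 for Phlda3, -1.81 to 0.04 for Trp53inp1, -0.15 to 4.40 for Rrm2b, -0.44 to 1.20 for Sesn1, -5.98 to 0.40 for Tigar and -0.46 to 0.84 for Dglucy. The cause of these changes was not tested. In the low members 1 count was worth up to 0.608 CPM, and the part of depth in their values was not tested. The biological coefficient of variation of the edgeR fit, its common spread between libraries beyond counting error, was 0.99.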
